A study of Mus musculus with 11 samples.

Results

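The cluster of miR-132 and miR-212 consists of a pair of neighbouring hairpins, and its members here are every arm of these hairpins listed in a table of mature miRNAs from mouse embryonic stem (mES) cells. All 4 arms are listed, namely mmu-miR-132-5p, mmu-miR-132-3p, mmu-miR-212-5p and mmu-miR-212-3p, out of 592 miRNAs in all, and the rule takes them by hairpin name. Small RNAs were sequenced from 11 libraries, 5 of Trim-/- and 6 of Trimfl/fl male C57BL/6 mES cells. The question was how loss of Trim71, an RNA-binding protein and E3 ubiquitin ligase of stem cells, bears on the miRNAs of these cells. Both groups come from cells with floxed Trim71 alleles and, per the study's methods, carry a tamoxifen-inducible Cre recombinase (CreERT2) at the Rosa26 locus. Trimfl/fl cells keep the floxed exon, and in Trim-/- cells it is deleted. Per the labels, Trim-/- cells arose from treatment of the floxed cells with 500 nM 4-OHT (4-hydroxytamoxifen, which activates the Cre) for 2 days, followed by at least 7 days of culture. The labels carry this same entry for the Trimfl/fl libraries and do not say whether those cells were treated. The study's methods give a lower concentration and a shorter culture, and name the solvent DMSO for the Trimfl/fl controls. Cells grew in serum with LIF and were sorted for the stem cell surface antigen SSEA-1 before analysis. A Trim-/- and a Trimfl/fl library share a day and a clone on days 1, 5 and 6 (clone 1) and on days 3 and 4 (clone E3). The Trimfl/fl library of day 2 (clone E3) has no partner. Each genotype thus rests on 2 clones, and the libraries of a clone are repeats of the same line. The p-values below therefore measure the spread between days.

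A miRNA hairpin is cut by the enzymes Drosha and Dicer into a short duplex, and one strand, from the 5′ (5p) or the 3′ (3p) arm, is kept by an Argonaute protein and guides it to mRNAs that pair with its seed, bases 2 to 8. The arms of a hairpin come from the same transcript, so the ratio of the arms depends on strand choice and stability rather than on transcription. miR-132 and miR-212 are known as activity-regulated miRNAs of neurons that are induced through the transcription factor CREB and act in dendrite growth and synaptic plasticity.

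The mature sequences are shown because the seed sets which arms can share targets. They are from RefSeq (GRCm38.p6), 5′ to 3′, with the seed in capitals.
mmu-miR-132-5p: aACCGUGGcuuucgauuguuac
mmu-miR-132-3p: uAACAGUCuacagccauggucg
mmu-miR-212-5p: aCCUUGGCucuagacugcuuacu
mmu-miR-212-3p: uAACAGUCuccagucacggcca
The 3p arms share the seed AACAGUC and their first 9 bases, and 17 of their 22 positions are identical. Counted from the 5′ end, with the base of miR-132-3p first, the differences are A10C, C14U, U17C, U20C and G22A. The 5p arms have the seeds ACCGUGG and CCUUGGC, which differ from each other and from the 3p seed. Of the 592 miRNAs in the table, 463 were matched to a RefSeq sequence, and among these no miRNA outside the cluster had the seed of a member.

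The hairpins are shown because the report compares arm with arm. Their mature arms are in capitals.
mmu-miR-132: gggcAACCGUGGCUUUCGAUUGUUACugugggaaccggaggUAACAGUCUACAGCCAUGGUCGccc
mmu-miR-212: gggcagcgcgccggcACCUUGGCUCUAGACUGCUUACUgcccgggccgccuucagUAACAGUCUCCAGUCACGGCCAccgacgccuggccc
Mir212 lies at chr11:75173388-75173478 and Mir132 at chr11:75173682-75173747, both on the plus strand of GRCm38, with 203 bases between them. Both lie in intron 1 (chr11:75172598-75173977) of 1700016P03Rik, a non-coding transcript of 3 exons on the same strand in GENCODE M21, and neither overlaps an exon of it. The genes on either side are Hic1, a transcriptional repressor, and Ovca2. The nearest other listed miRNA with a RefSeq position, miR-22-5p, starts 289987 bases away.

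The deposited values are read counts that the authors normalized, corrected for batch and floored at 1, and no member has a value at the floor. For 485 of the 486 miRNAs without a floored value, the sum of a same-day pair is the same on every day to within 0.1%. The libraries of a pair therefore mirror each other, the SDs of both groups are equal by construction, and each pair carries 1 difference. For the same reason, being higher on all 5 days and having no overlap between the groups are one and the same event here, and 31 miRNAs meet both. For all 4 members, the day 2 Trimfl/fl value equals the mean of the other Trimfl/fl libraries and adds no measurement. Read depth is unknown, so no counting error could be given, and summed values ran from 3751520 to 5551710 in Trim-/- and from 2742670 to 4332530 in Trimfl/fl. Trim71 mRNA is not measured in these libraries, so the genotype labels could not be checked here. miRNAs that mark mES cells (miR-290 to miR-295, miR-302 and miR-367, 27 listed) took 55.5% to 59.7% of the summed values in Trim-/- and 56.8% to 59.8% in Trimfl/fl. Of the 27, 13 had a positive and 14 a negative log2 difference (Trim-/- minus Trimfl/fl), and 0 passed the thresholds given below. The listed arms of miR-302 and miR-367 were all negative (-0.28 to -1.85), seen only after the values were known, and those of miR-290 to miR-295 ran both ways.

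mmu-miR-132-5p was higher in Trim-/- cells on every day, and it was the only one of the 4 arms to pass the study's thresholds, a fold change over 1.5 with an unadjusted p under 0.05. In Trim-/- its values were 138.5, 132.5, 128.4, 142.05 and 166.5 for days 1, 3, 4, 5 and 6. In the Trimfl/fl partners they were 82.4, 88.3, 92.5, 78.8 and 54.3. The lowest Trim-/- library (day 4) lay above the highest Trimfl/fl library (also day 4), so the groups did not overlap, and the widest gap was that of day 6. The mean was 141.6 ± 14.9 (SD, n = 5) in Trim-/- and 79.3 ± 14.9 (SD, n = 5) in Trimfl/fl, a ratio of 1.79. On the log2(value + 1) scale the day-blocked limma fit gave a difference of 0.85 (SE 0.27, 95% interval 0.18 to 1.51), with an unadjusted p of 0.0208, an exact permutation p within days of 0.0625, two-sided, which is the smallest that 5 pairs allow, and an adjusted p of 0.607. The call was lost without the pair of day 1 (log2 difference 0.87) or of day 6 (0.66).

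These counts are read against those of the whole table. Of all 592 miRNAs, 5 (0.845%) passed the study's thresholds as higher in Trim-/-, and 32 (5.41%) passed in either direction. In limma 0 (0%) passed an adjusted p under 0.05, 32 had an unadjusted p under 0.05, and the smallest adjusted p was 0.607. Being higher in Trim-/- on all 5 days was met by 31 miRNAs (5.24%). Among the 4 arms 1 met it. By unadjusted p miR-132-5p ranked 14 of 592, and by log2 difference it ranked 63 from the highest.

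**Figure D1:**
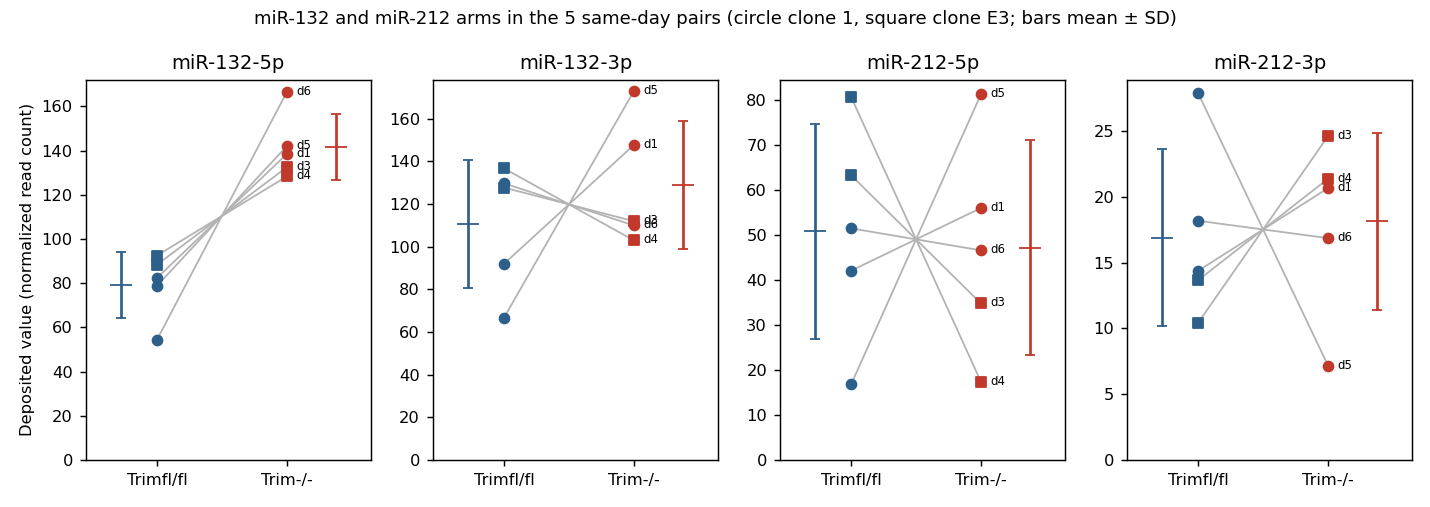
Deposited value (normalized read count, y axis from 0) of each arm in the Trimfl/fl (blue) and Trim-/- (red) library of each same-day pair, joined by a line, with days marked d1 to d6, circles for clone 1, squares for clone E3 and bars for the mean ± SD (n = 5). The Trim-/- values of miR-132-5p (128.4 to 166.5) all lie above its Trimfl/fl values (54.3 to 92.5), whereas the lines of the other arms run both ways. In every panel the lines cross at a single point because the pair sums are constant.

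mmu-miR-132-3p, the arm long studied as the active strand of miR-132 in neurons, did not differ detectably between the genotypes. Its Trim-/- values were 147.7, 112.0, 103.0, 173.0 and 110.0 on days 1, 3, 4, 5 and 6. Its Trimfl/fl values on these days were 92.0, 127.8, 136.7, 66.7 and 129.7. Trim-/- was higher on days 1 and 5, both of clone 1, and lower on the other 3 days, and the groups overlapped. The means were 129.1 ± 30.1 and 110.6 ± 30.1 (SD, n = 5 each). The fitted log2 difference was 0.24 (SE 0.35, 95% interval -0.62 to 1.10, limma adjusted p = 0.759, exact permutation p = 0.5625), an interval that holds both no difference and the value of the 5p arm.

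mmu-miR-212-5p, the 5p strand of the neighbouring hairpin, had the widest spread of same-day log2 differences among the 4 arms (SD 1.61). Its Trim-/- values were 56.1, 34.8, 17.4, 81.4 and 46.6 on days 1, 3, 4, 5 and 6, and its Trimfl/fl values were 42.1, 63.3, 80.7, 16.8 and 51.5. Trim-/- was far lower on day 4 and far higher on day 5, and the means of 47.3 ± 23.9 and 50.9 ± 23.9 (SD, n = 5 each) were close. The log2 difference was -0.10 (SE 0.62, 95% interval -1.63 to 1.42, limma adjusted p = 0.955, exact permutation p = 0.875).

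mmu-miR-212-3p, which shares the seed of miR-132-3p, was the lowest of the arms. Its Trim-/- values were 20.7, 24.6, 21.4, 7.18 and 16.9 on days 1, 3, 4, 5 and 6, and its Trimfl/fl values were 14.4, 10.4, 13.7, 27.9 and 18.2. Trim-/- was higher on days 1, 3 and 4 and lower on days 5 and 6. The means were 18.1 ± 6.73 and 16.9 ± 6.73 (SD, n = 5 each). The log2 difference was 0.07 (SE 0.47, 95% interval -1.08 to 1.22, limma adjusted p = 0.959, exact permutation p = 1).

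**Figure D2:**
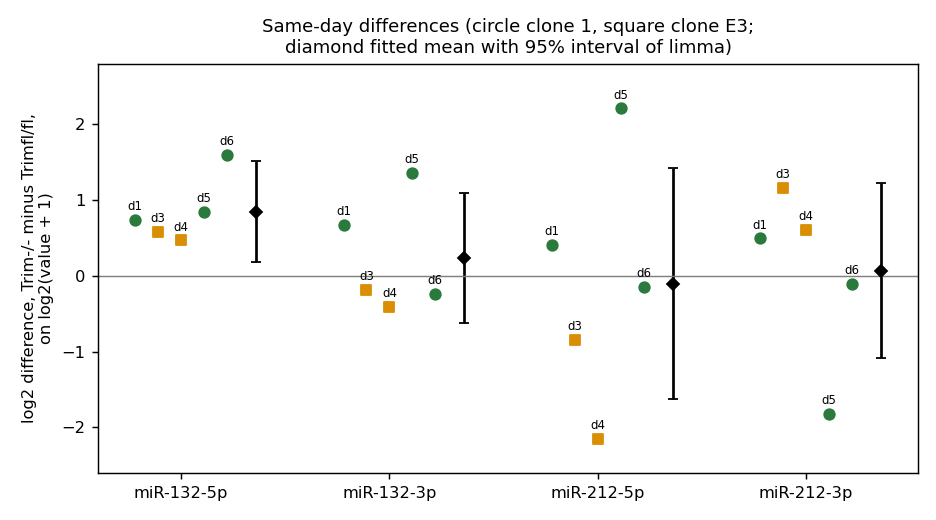
Difference in log2(value + 1), Trim-/- minus Trimfl/fl, for each arm on each day (d1 to d6, circles clone 1, squares clone E3), with a diamond for the fitted mean and a bar for its 95% interval in limma. All 5 points of miR-132-5p lie above 0, from 0.47 to 1.60, and those of the other arms lie on both sides.

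The same-day differences of the arms were also compared with each other. For miR-132-5p they were 0.74, 0.58, 0.47, 0.84 and 1.60 on the log2 scale on days 1, 3, 4, 5 and 6. For miR-212-5p they were 0.40, -0.84, -2.15, 2.21 and -0.14, and for miR-212-3p 0.49, 1.16, 0.61, -1.82 and -0.10. The differences of miR-132-3p, 0.68, -0.19, -0.41, 1.36 and -0.24, had the sign of those of miR-212-5p on all 5 days, a pattern picked out after the values were seen, and 14 of the 591 other miRNAs (2.37%) share those signs with miR-132-3p. The 4 members give 6 comparisons between arms, and none passed. The largest, of miR-132-5p against miR-212-5p, gave a mean of 0.95 on the log2 scale (higher on 4 of 5 days, exact permutation p = 0.1875, adjusted over the 6 pairs 0.5625).

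Scaling by the summed values moved the estimate for miR-132-5p more than leaving out any 1 day did. In ppm of a library's summed values, miR-132-5p was 32.0, 31.4, 34.2, 25.6 and 38.3 in Trim-/- on days 1, 3, 4, 5 and 6, and 21.9, 22.9, 21.3, 28.7 and 14.4 in Trimfl/fl. It was then higher in Trim-/- on 4 of 5 days, and on day 5 it was lower. On that day the summed value of the Trim-/- library stood 1.02 on the log2 scale above its partner, against -0.21 to 0.21 on the other days. The fitted difference on this scale was 0.58 on the log2 scale, not past the thresholds (limma adjusted p = 0.642). This scaling was not particular to miR-132-5p. The median difference of all 592 miRNAs moved from 0.03 to -0.24, and the estimates of the other arms fell too (miR-132-3p from 0.24 to -0.03).

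The arms were then compared within each hairpin. The question was whether loss of Trim71 goes with a change of the 5p arm relative to the 3p arm, which the call for one arm of miR-132 and not for the other does not answer. In miR-132 the 5p arm made up 48.4%, 54.2%, 55.5%, 45.1% and 60.2% of the summed arms in Trim-/- on days 1, 3, 4, 5 and 6. In Trimfl/fl it made up 47.2%, 40.9%, 40.3%, 54.2% and 29.5%. The share was higher in Trim-/- on 4 days and lower on day 5, with means of 52.7% ± 5.98 and 42.4% ± 9.14 (SD, n = 5 each). The arm difference, log2 of 5p over 3p in Trim-/- minus the same in Trimfl/fl, was 0.07, 0.77, 0.87, -0.52 and 1.83 on these days. Its fitted mean was 0.60 (SE 0.45, 95% interval -0.48 to 1.69, limma adjusted p = 0.835, exact permutation p = 0.1875), so a difference between the arms was not detectable.

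Among the 179 hairpins with both arms listed, 3 (1.68%) passed the thresholds for an arm difference, 0 (0%) an adjusted p under 0.05 in limma and 3 an unadjusted p under 0.05, and the smallest adjusted p was 0.835. A ratio of 5p to 3p that was higher in Trim-/- on all 5 days was found in 3 (1.68%). miR-132 ranked 41 of 179 by arm difference, between miR-669l at 0.60 and miR-574 at 0.58. Its arms moved in the same direction on 2 of 5 days, as did the arms of 48 hairpins (26.8%).

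In miR-212 the 5p share ran from 44.9% to 91.9% in Trim-/- and from 37.6% to 85.9% in Trimfl/fl, with means of 68.4% ± 17.7 and 71.5% ± 19.8 (SD, n = 5 each). Its arm difference was -0.09, -2.01, -2.76, 4.03 and -0.04 on days 1, 3, 4, 5 and 6. On days 3 and 4 the share was lower in Trim-/-, on day 5 it was far higher, and on days 1 and 6 it hardly moved. The fitted mean was -0.17 (SE 0.98, 95% interval -2.54 to 2.19, limma adjusted p = 0.983), and miR-212 ranked 114 of 179, between miR-33 and miR-671.

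**Figure D3:**
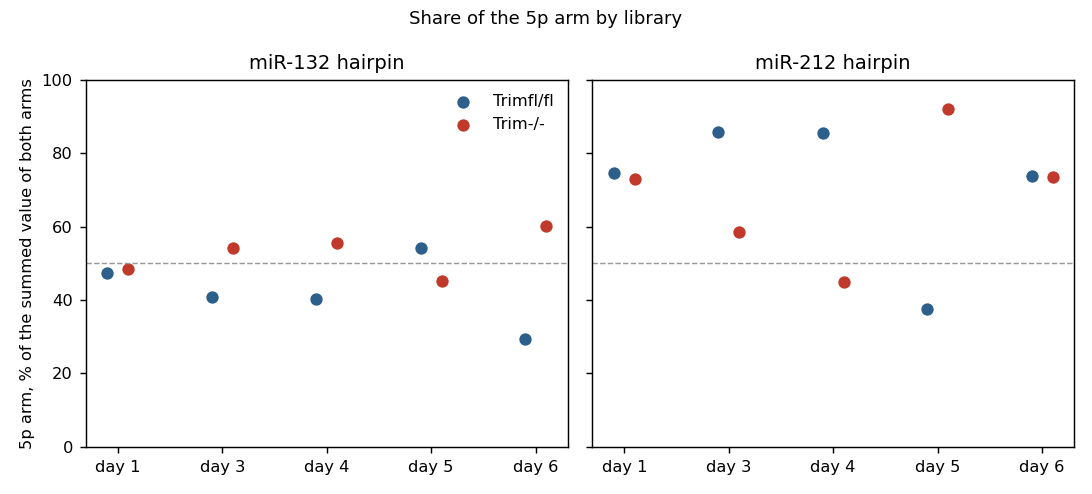
Share of the 5p arm in the summed value of both arms (%, y axis) in each Trimfl/fl (blue) and Trim-/- (red) library by day, for miR-132 (left) and miR-212 (right), with a dashed line at equal arms. In miR-132 the red points lie above the blue ones on days 1, 3, 4 and 6 and below on day 5, and in miR-212 the order turns between days 3 and 4 and day 5.

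Within the cluster the order of mean values over the 10 paired libraries was miR-132-3p (119.9), miR-132-5p (110.4), miR-212-5p (49.1) and miR-212-3p (17.5), ranks 303, 313, 409 and 503 of 592. The mature arms are 22 or 23 bases long. These levels are normalized read counts, and the efficiency with which each sequence enters a library was not measured. The values of the miR-132 arms overlapped between libraries and do not set an order between these neighbours. The mean 5p to 3p ratio of miR-132 was -0.12 on the log2 scale. By the size of that ratio miR-132 was the third most even of the 179 hairpins, after miR-471 and miR-292b, where the median size was 3.10. This pools genotypes whose means lean opposite ways, at 0.13 in Trim-/- (4th most even) and -0.48 in Trimfl/fl (7th). Single libraries of each genotype lay on both sides of equal arms, and the arm difference between genotypes was not detectable. miR-212 stood at 1.49 in favour of its 5p arm, the 50th most even. This balance was noticed after the values were seen and is a description of levels.

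**Figure D4:**
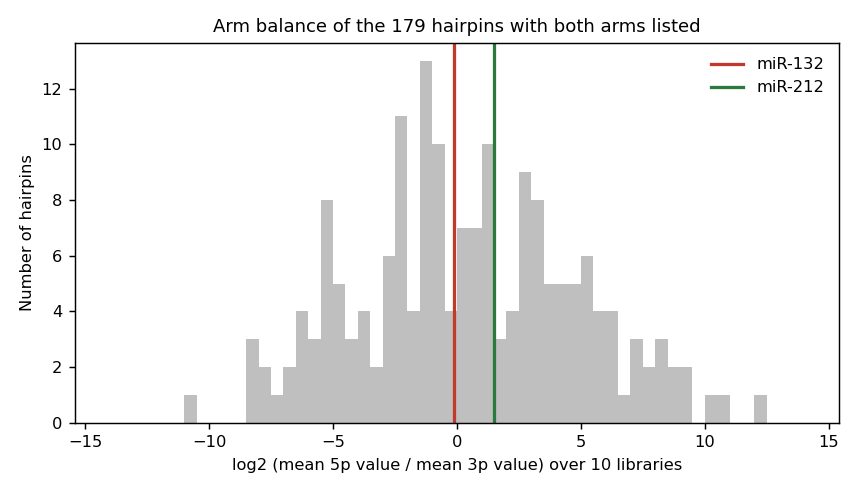
Number of hairpins (y axis) by log2 of the mean 5p value over the mean 3p value in the 10 paired libraries (x axis), for the 179 hairpins with both arms listed, with lines at miR-132 (red, -0.12) and miR-212 (green, 1.49). miR-132 lies next to 0, where the arms are equal.

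Since the 3p arms share a seed, their values were also added up. The total was 168.4, 136.6, 124.4, 180.2 and 126.9 in Trim-/- on days 1, 3, 4, 5 and 6, and 106.4, 138.2, 150.4, 94.6 and 147.9 in Trimfl/fl. It was higher in Trim-/- on days 1 and 5 only, with means of 147.3 ± 25.4 and 127.5 ± 25.4 (SD, n = 5 each) and an exact permutation p of 0.5. miR-212-3p made up 12.8% of it. The summed arms of the hairpin miR-132 had means of 270.7 ± 33.5 in Trim-/- and 189.8 ± 33.5 in Trimfl/fl, with 231.3 in the lowest Trim-/- library and 229.2 in the highest Trimfl/fl library (exact permutation p = 0.0625, the smallest possible). The sums of 10 of the 179 hairpins (5.59%) were likewise all higher in Trim-/-, and of the arms of miR-132 only the 5p arm was higher on all 5 days. Those of miR-212 were 65.4 ± 18.8 and 67.8 ± 18.8.

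The clones were set side by side. The mean log2 difference of miR-132-5p was 1.06 in clone 1 (higher on 3 of 3 days) and 0.52 in clone E3 (2 of 2 days). For miR-132-3p it was 0.60 and -0.30, for miR-212-5p 0.82 and -1.50, and for miR-212-3p -0.48 and 0.89. Clone 1 lay above clone E3 in the first 3 arms and below it in miR-212-3p. None of these differences between clones passed an adjusted p under 0.05 in limma (adjusted p = 0.708, 0.652, 0.627 and 0.648), and with 3 days against 2 they rest on few pairs. Fitted on clone 1 alone, miR-132-5p passed the study's thresholds as higher, as did 14 of the 592 miRNAs in all (2.36%). Fitted on clone E3 alone, miR-212-5p passed the study's thresholds as lower, as did 28 of the 592 miRNAs in all (4.73%), and miR-132-5p did not pass. For the arm difference of miR-212, clone 1 gave 1.30 and clone E3 -2.39 (adjusted p = 0.574).

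Likeness of pattern was measured as the Euclidean distance between the 5 same-day log2 differences of 2 miRNAs, as a description. Nearest to miR-132-5p were miR-24-2-5p (0.59), let-7c-5p (0.92) and miR-3074-5p (0.96), where the median distance to all others was 3.01. Its own partner arm, miR-132-3p, came 139th at 2.23. Nearest to miR-132-3p were miR-344-3p (0.59), miR-193b-3p (0.67) and miR-16-1-3p (0.69). The arms of miR-212 lay 5.29 apart, farther than the median distances of 3.99 and 3.37 from each to all others. miR-212-5p was nearest to miR-101a-3p, miR-378a-3p and miR-3470a, and miR-212-3p to miR-449a-5p, miR-23a-3p and miR-328-3p. The 3 miRNAs nearest to an arm thus never included another arm of the cluster. The closest arm by rank was miR-132-3p, 33rd from miR-212-5p at 2.07, below the median of 3.99.

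**Figure D5:**
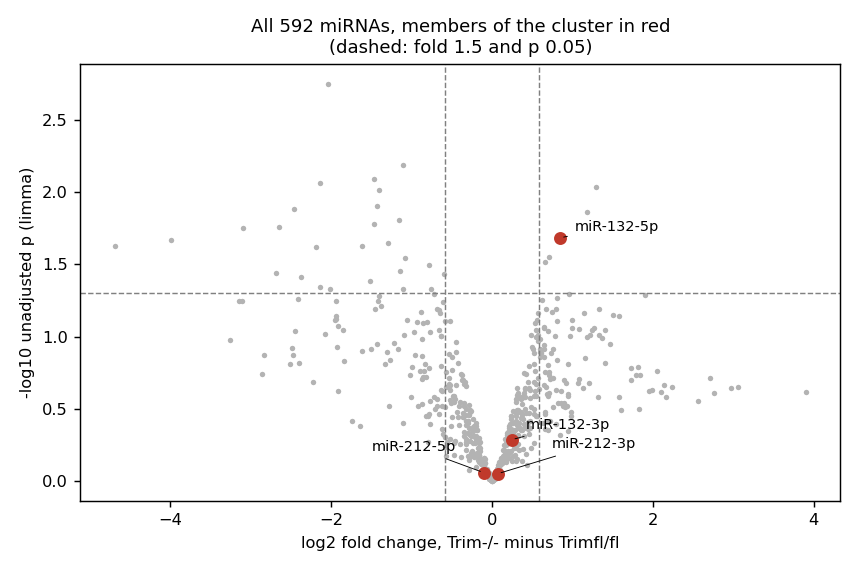
Fitted log2 difference (Trim-/- minus Trimfl/fl, x axis) against -log10 of the unadjusted limma p (y axis) for the 592 miRNAs (grey), with the 4 arms in red and dashed lines at a fold of 1.5 and a p of 0.05. miR-132-5p lies in the upper right field with 4 other miRNAs, and the other arms lie near the bottom.

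Other miRNAs known from neurons were counted from a list. Of 23 such miRNAs, from 12 of the 15 names in the list, 0 passed the thresholds in either direction, where 5.41% of all miRNAs did, a share that leaves little to read from 0 of 23. Of the 23, 10 had a positive and 13 a negative log2 difference, and the median was -0.01 against 0.03 over all 592. The most abundant were miR-7a-5p (log2 difference -0.01), miR-9-5p, a regulator of neural progenitors (0.76), miR-128-3p, a brain-enriched miRNA (0.64), and miR-7b-5p (0.11), with limma adjusted p-values of 0.991, 0.620, 0.620 and 0.870.

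Markers of other cells that could be present were read in the same libraries. Of all 592 miRNAs, 303 (51.2%) had a positive log2 difference and 5.41% passed the thresholds in either direction. Of 10 neuron marker miRNAs, all of them also in the neuronal list, 0 passed the thresholds, 7 had a positive difference, and the median was 0.40. The other 13 miRNAs of the neuronal list had 3 positive and 10 negative differences, a median of -0.08 and 0 past the thresholds. The summed value of the 10 neuron markers was 5977 to 9285 in Trim-/- and 3442 to 6749 in Trimfl/fl, higher in Trim-/- on 4 days and lower on day 4. As a share of the library, the same sum was 0.159% to 0.183% in Trim-/- and 0.126% to 0.156% in Trimfl/fl, higher in Trim-/- on all 5 days, with 0.159% against 0.156% on day 4. miR-9-5p and miR-128-3p made up 89.6% of that sum. Of single miRNAs, 5 of 592 (0.845%) had a higher share in Trim-/- on all 5 days. Of the neuron markers miR-153-3p had a value at the floor, and miR-9-5p and miR-124-3p were present in every library. Of 12 fibroblast markers 0 passed, 10 had a positive difference, the median was 0.41, and the sum took 0.387% to 0.755% of Trim-/- and 0.497% to 0.855% of Trimfl/fl libraries. In value that sum was 14530 to 38298 in Trim-/- and 13627 to 37065 in Trimfl/fl, higher in Trim-/- on 4 days. Of 5 blood cell markers 1 passed, miR-142-3p, which was lower in Trim-/- (log2 difference -1.11, limma adjusted p = 0.607). Of the 5, 1 had a positive and 4 a negative difference, with a median of -0.87. Their sum was 1149 to 2864 in Trim-/- and 2319 to 4077 in Trimfl/fl, higher in Trim-/- on 1 day. The part of these markers in the values of miR-132-5p was not tested. In bulk libraries fewer cells of a type and less RNA per cell cannot be told apart.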

How the data were processed

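The deposited table gives mature miRNAs of 11 libraries. The labels name a TruSeq RNA kit with paired-end reads, whereas the study's methods for miRNAs name a small RNA kit with short reads, which the table of mature miRNAs was taken to come from. According to the study's methods, reads were aligned with Bowtie2 to miRBase, and the submitters' processing notes name CASAVA 1.8, Bowtie2 2.2.1, Partek 6.6, DESeq2 and mm10. The authors used DESeq2 for normalization, removed batch effects and replaced values under 1 by 1. The deposited signal is therefore in normalized, batch-corrected reads, and depth is unknown. The 10 libraries of the 5 same-day pairs were compared with limma 3.58.1 in R 4.3.3 on log2(value + 1) in a model of genotype plus day, with Benjamini-Hochberg adjustment over all 592 miRNAs (or 179 hairpins for arm differences). The labels give the day and clone that pair the libraries. Same-day deviations from the group means correlated at -0.65 to -0.41 across miRNAs, which the constant pair sums impose. Single values were tested by exact permutation of genotype within days (32 patterns). The code of the fit was tested on simulated data in which the pair sums were not constant. Its error rates on mirrored pairs were not measured. Sequences came from RefSeq (GRCm38.p6) and gene models from GENCODE M21. Python 3.11.15, pandas 2.3.3, numpy 2.4.6 and matplotlib 3.10.9 were used for descriptions and plots. Named miRNAs are the arms of both hairpins, those with a shared seed, the 3 nearest to each arm in pattern, the 4 most abundant of the neuronal list and the hairpins next in rank of arm difference. Outside this rule, and chosen after values were seen, are miR-142-3p, miR-153-3p, miR-124-3p, miR-471 and miR-292b, and miR-22-5p is named for its position. The members and lists were chosen with earlier results of these data known. Alternatives were no replicate block (10 or all 11 libraries), a clone term for the day term, omission of 1 pair at a time, either clone by itself, scaling by library totals, median ratio or quantiles, pseudocounts of 0.1 and 10, untransformed values (fold from the ratio of means, and p alone for arm differences), limma with trend, a mean of at least 100 and, chosen after seeing the data, no floored value. The alternatives for the arm difference of miR-212 were also added after seeing the data.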

Additional observations from a re-analysis of the deposited data

How the results depend on the processing

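The difference of miR-132-5p stayed positive under all 19 alternatives and passed the study's thresholds under 15, among them the fit on untransformed values (difference 62.31). It lost the call in clone E3 alone (0.5239), under scaling by library totals (0.5788), without day 1 (0.8719) and without day 6 (0.6581), and leaving out each pair gave 0.6581 to 0.9404. Without the replicate block it was 0.846 with a limma adjusted p of 0.0422, and with all 11 libraries 0.8422 with 0.0147, where 9 and 36 miRNAs passed that adjustment. Because pair sums are constant, fits without the block count each of the 5 mirrored differences as separate libraries, and the day 2 value equals the group mean, so the SE falls by construction (from 0.2726 to 0.168 and 0.1494). With the block, its lowest adjusted p over the alternatives was 0.3846. miR-132-3p turned negative in clone E3 alone (-0.2972) and under library totals (-0.02553), and ran from -0.03821 (without day 5) to 0.4038 with a pair left out. miR-212-5p turned positive in clone 1 alone (0.8249) and under quantile scaling (0.01062), passed as lower in clone E3 alone (-1.498), and ran from -0.6832 to 0.4075 with a pair left out (0.08083 without day 3). miR-212-3p turned negative in clone 1 alone (-0.4764) and under library totals (-0.181), and ran from -0.2048 to 0.5417 (-0.03721 without day 1, -0.06609 without day 4). The arm difference of miR-132 passed only with all 11 libraries (0.6085), where 18 hairpins passed against 3 in the paired fit, and ran from 0.2968 to 0.8852. That of miR-212 turned positive in clone 1 alone (1.301), passed as lower in clone E3 alone (-2.385), where 10 hairpins passed, and ran from -1.225 to 0.4736 (0.2856 without day 3). The causes were not tested. The number of miRNAs past the thresholds was 5 higher and 27 lower, and 42 and 59 without the replicate block, 36 and 57 with clone in place of day, 2 and 48 under library totals, 9 and 19 on untransformed values, 15 and 23 under quantile scaling, 23 and 44 without day 4, and 5 and 11 without day 1. Library totals moved the median of all miRNAs from 0.03 to -0.24. The filter on a mean of at least 100 left no value for miR-212. Because depth is unknown, the counting error of the lowest arm, miR-212-3p, could not be given.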
